A study of Mus musculus with 6 samples.

Results

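The CDK inhibitor and pocket protein genes are a set of 9: Cdkn1b and Cdkn1c of the CIP/KIP inhibitors, Cdkn2a, Cdkn2b, Cdkn2c and Cdkn2d of the INK4 inhibitors, and the pocket protein genes Rb1, Rbl1 and Rbl2. They were chosen by gene name, and 13 of the 55681 non-control probes on the array carry one of these names. Gene expression was measured in muscle satellite cells sorted from C57BL6 mice in which these cells are Rpt3 null (3 knockout mice) and from 3 control mice, with 1 single-colour Agilent array per mouse. Rpt3 is the product of Psmc4, an ATPase of the regulatory particle of the proteasome. The labels name neither the Cre driver nor the alleles the controls carry, and give no age or time after deletion. The RNA, 5 ng per sample, was amplified over the whole transcriptome before labelling.

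Satellite cells are the stem cells of skeletal muscle and rest outside the cell cycle until injury calls on them. INK4 proteins block the kinases that pair with D-type cyclins, and CIP/KIP proteins bind a wider range of cyclin-kinase complexes. While these kinases are held back, the pocket proteins stay bound to E2F factors and keep genes of DNA replication and mitosis off. Several CDK inhibitor proteins, p27 (from Cdkn1b) and p57 (from Cdkn1c) among them, are cleared through ubiquitin and the proteasome, so the proteins can change where their mRNA does not; the arrays measured mRNA alone.

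Between 44.2% and 57.9% of the probes were well above background on an array, the lowest share being that of knockout 3. Knockout 3 also stood apart on the first principal component, at 72.4 against -24.4 to -4.52 for the other arrays. Knockout 1 and 2 lay in row 1 of the slide, and knockout 3 and the 3 controls in row 2, so any fit that blocks on slide row rests on knockout 3 against the controls. Psmc4, the targeted gene, read 2.004 and 2.02 in knockout 1 and 2 and 1.52 in knockout 3 against 2.58 to 2.89 in the controls, a log2 difference of -0.92 (SE 0.23, limma, adjusted p = 0.406). The deleted stretch of the gene is not named in the labels, so the probe may lie outside it. All 10 satellite cell markers could be tested: 6 were above 0 and 4 below, with a median log2 difference of 0.022, and 0 passed. Pax7 differed by 0.17 and, like Itga7, was above background in 2 of 3 knockout samples. Calcr differed by -1.04 (SE 0.28, limma, adjusted p = 0.432). Myf5 was above background in no knockout sample, and its mean was at least 2.23-fold lower there (limma, adjusted p = 0.183). That bound leaves sampling error out, and for both genes the groups did not overlap. In bulk RNA, fewer cells of a type and less RNA per cell cannot be told apart. Markers of neutrophils stood, relative to the mean of all arrays, at 0.94, 0.99 and -0.62 on the log2 scale in knockout 1, 2 and 3 and between -0.69 and 0.0052 in the controls (4 of 6 markers tested, 3 of them above background on every knockout array). S100a8 carried most of this, at 1.72, 2.59 and -4.09 in knockout 1, 2 and 3, while Csf3r differed by 0.067 with overlapping groups. Those of endothelial cells spanned -0.60 to 0.75 in knockout cells and -0.82 to 0.84 in controls, and the red blood cell gene Hba-a1 was higher in every knockout sample than in any control (log2 difference 1.88, SE 0.44, adjusted p = 0.353). Slc4a1, the other red blood cell gene tested, differed by -0.0078 with overlapping groups. Of 6 fibro-adipogenic cell markers tested, 2 were above 0 and 4 below, with a median log2 difference of -0.35. Among them Col1a1 differed by -0.71 (SE 0.27, limma, adjusted p = 0.62) without overlap of the groups, and Lum by 0.36 with overlap. The part of these cell types in the results below was not tested.

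No difference was called in this set. Of the 9 genes, 6 had a probe well above background on all 3 arrays of a group and were tested (7 probes): Cdkn1b, Cdkn1c, Cdkn2c, Cdkn2d, Rb1 and Rbl1. At an adjusted p under 0.05 (limma with Benjamini-Hochberg adjustment over 19298 features), 0 of the 6 were higher and 0 lower in knockout cells, where the share over all features was 0% in each direction, with a lowest adjusted p of 0.0684. The members again gave 0 of 6 at an unadjusted p under 0.05, beside 7.11% of all features. Groups did not overlap in 0 of 6 members, against 10.6% of all features (4.9% with all knockout values above the controls and 5.72% with all below). Of the 6 log2 differences, 5 were below 0 and 1 above, with a median of -0.24 where the median over all features was 0.041. Values below are log2 signals relative to the array's 75th percentile, so a value of 0 lies at that percentile, and they are compared between samples for one probe and never between probes.

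**Figure D1:**
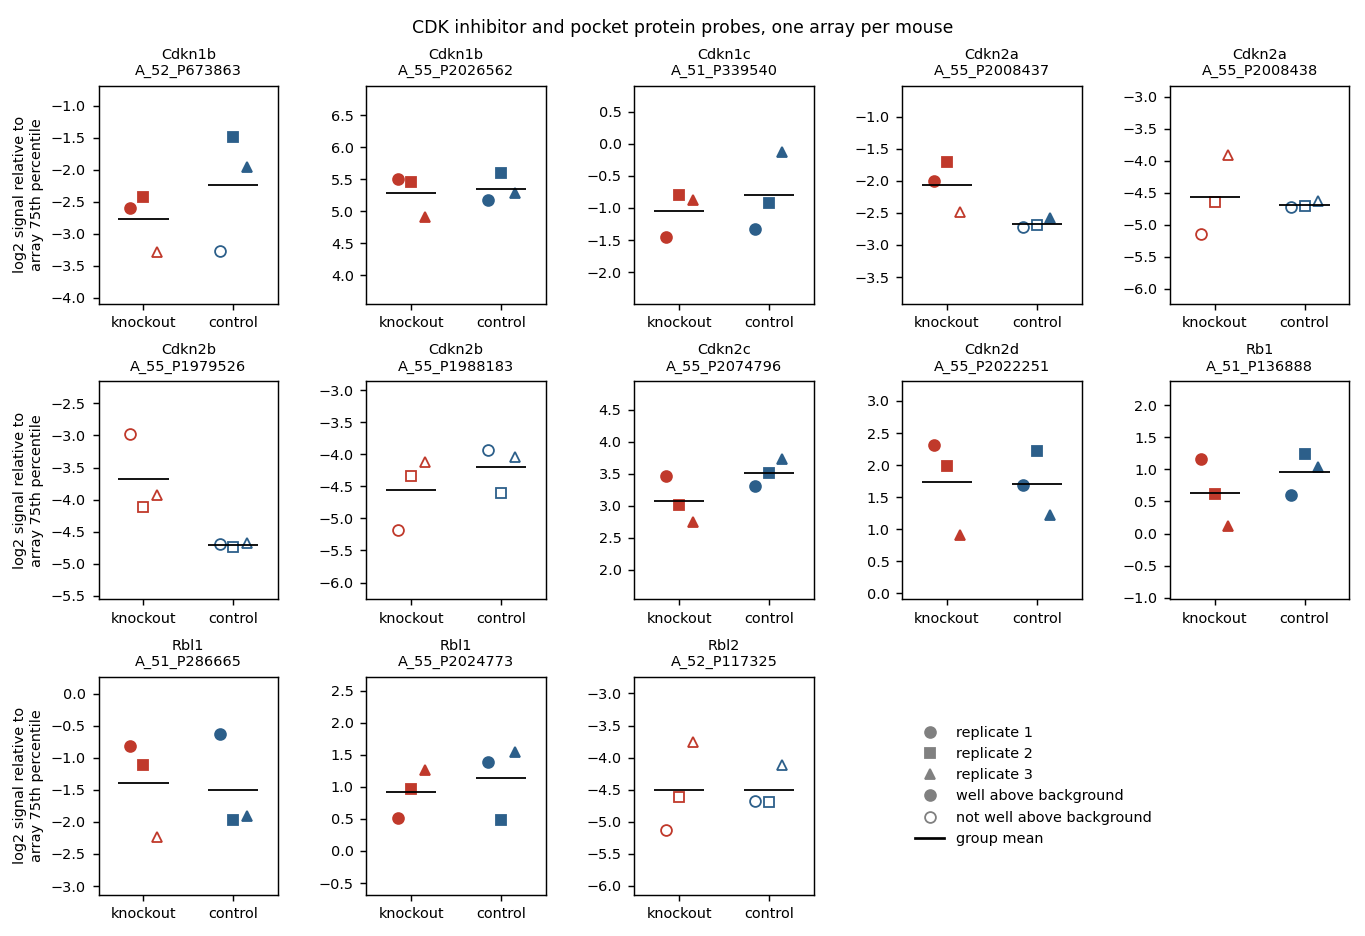
Log2 signal relative to the array's 75th percentile (y axis) of the 13 probes of the 9 genes in each of 3 knockout (red) and 3 control (blue) samples; every panel spans the same log2 range around its own centre, open symbols mark arrays on which the probe was not well above background, and lines are group means. The groups overlap for every tested probe, and the probes of Cdkn2b, Rbl2 and 1 of Cdkn2a are open on all arrays.

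Cdkn1b encodes p27, an inhibitor of cyclin E and cyclin A kinases that is abundant in many resting cells. Its main probe, A_55_P2026562 (chromosome 6 of mm9, 134875424 to 134875483), read 5.50, 5.46 and 4.91 in knockout 1, 2 and 3, against 5.17, 5.60 and 5.29 in control 1, 2 and 3. Knockout 1 and 2 lay within the controls' range and knockout 3 below it. The means were 5.29 ± 0.33 (SD, n = 3) and 5.35 ± 0.22 (SD, n = 3), a log2 difference of -0.062 with a 95% confidence interval of -0.64 to 0.52 (limma, adjusted p = 0.988). The interval reaches from 0.641 to 1.43 times the control signal, so no change and changes within these limits are all compatible with these data. It is not a limit of detection. The difference was 0.13 without knockout 3 and -0.44 with a slide row block (adjusted p = 0.391). The other Cdkn1b probe, A_52_P673863, was well above background in 2 of 3 samples of each group and was not tested; it read -2.60, -2.42 and -3.29 in the knockout and -3.28, -1.49 and -1.96 in the control samples.

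Cdkn1c encodes p57, the imprinted relative of p27. Its probe (chromosome 7 of mm9, 150644753 to 150644812) was well above background on all 6 arrays and read -1.46, -0.80 and -0.87 in knockout 1, 2 and 3. In control 1, 2 and 3 it read -1.33, -0.93 and -0.13. The highest value was that of control 3 and the lowest that of knockout 1, while control 1 and 2 lay below knockout 2 and 3, so the ranges of the groups overlap. The log2 difference was -0.25 (95% confidence interval -1.06 to 0.57, limma, adjusted p = 0.984), and it was 0.087 without control 3.

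Cdkn1a, which encodes the third CIP/KIP inhibitor p21 and is a main target of p53, has 3 tested probes that did not move alike. The probe that stands for the gene had a log2 difference of 0.63 (SE 0.24, adjusted p = 0.628). That probe matches both RefSeq transcripts listed for the gene's probes, whereas A_55_P1986282 (chromosome 17 of mm9, 29227986 to 29228045) matches 1 of them. The latter read 0.15, -0.43 and -0.98 in knockout 1, 2 and 3, against -2.76, -2.47 and -2.30 in control 1, 2 and 3, where it was above background in 2 of 3 samples. All its knockout values lay above all control values, with a log2 difference of 2.09 (SE 0.32) that did not pass over all tested probes (limma, unadjusted p = 0.000207, adjusted p = 0.179). With normexp background correction it was 0.87 (adjusted p = 0.253). That setting adds an offset of 50 to every signal, so here and below it shrinks the differences of dim probes by design. The third probe, A_55_P1976204, differed by 0.060 (SE 0.31).

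Among the INK4 genes, Cdkn2c (p18) had the lowest p of the 6 tested members. Its probe (chromosome 4 of mm9, 109333508 to 109333567) read 3.47, 3.01 and 2.75 in knockout 1, 2 and 3, against 3.30, 3.51 and 3.74 in control 1, 2 and 3. Knockout 2 and 3 lay below all controls and knockout 1 lay within their range. The means were 3.08 ± 0.36 (SD, n = 3) and 3.52 ± 0.22 (SD, n = 3), and the log2 difference was -0.44 (SE 0.26, 95% confidence interval -1.04 to 0.16), or 73.8% of the control signal, which did not pass (limma, unadjusted p = 0.129, adjusted p = 0.867; exact permutation p = 0.2, where 0.1 is the smallest that 3 against 3 allow). Without knockout 1 it was -0.63 (unadjusted p = 0.044, adjusted p = 0.64), without knockout 3 it was -0.28, and with a slide row block -0.77 (adjusted p = 0.295).

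Over the 6 arrays the features whose signals ran most like that of Cdkn2c were Vamp4, a vesicle fusion gene (Pearson's r = 0.994, Spearman's rho = 1), Pdk1, which encodes a kinase that holds back pyruvate dehydrogenase (r = 0.993, rho = 1), and a probe named HOTAIR (r = 0.992, rho = 0.943). They are the 3 highest of 19297 other features, so values this near 1 describe the ranking and carry no test. Their log2 differences were -0.54, -0.59 and -1.11, and none passed (adjusted p = 0.797, 0.835 and 0.814).

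Cdkn2d, which encodes the INK4 protein p19, gave the widest spread of the INK4 genes tested. Its probe (chromosome 9 of mm9, 21092934 to 21092993) read 2.31, 1.99 and 0.90 in knockout 1, 2 and 3, against 1.69, 2.23 and 1.22 in control 1, 2 and 3. The knockout samples held both the highest and the lowest value. The log2 difference was 0.023 (95% confidence interval -0.94 to 0.99, limma, adjusted p = 0.996). Its sign rested on single arrays: the difference was 0.44 without knockout 3, -0.26 without knockout 1, -0.10 without knockout 2 and -0.22 without control 3, and -0.81 with a slide row block (adjusted p = 0.357), and none of these passed.

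Cdkn2a makes 2 unrelated proteins from different first exons, the INK4 inhibitor p16Ink4a and p19Arf, which holds back the p53 ligase Mdm2. The file lists the same RefSeq transcripts of both for each of the 2 Cdkn2a probes, so these probes do not separate p16Ink4a from p19Arf mRNA. The locus is silent in most young tissues, and failure to keep it silent has been tied to loss of satellite cell quiescence in very old mice. Probe A_55_P2008437 (chromosome 4 of mm9, 88920405 to 88920464) was well above background in knockout 1, knockout 2 and control 3 and was not among the tested features. It read -2.01, -1.71 and -2.49 in knockout 1, 2 and 3, against -2.73, -2.69 and -2.59 in control 1, 2 and 3. Every knockout value lay above every control value, though knockout 3 exceeded control 3 by little, and 10.6% of all tested features did not overlap either. The log2 difference of 0.60 (SE 0.31) did not pass in a fit over all probes with no filter (limma, unadjusted p = 0.0904, adjusted p = 0.987), the exact permutation p was 0.1, the smallest possible, and with normexp background correction the difference was 0.19 (adjusted p = 1) and with quantile normalization 0.64 (unadjusted p = 0.0458, adjusted p = 0.858). The other probe, A_55_P2008438, was not well above background on any array, and on all 6 its signal had been replaced by the surrogate value that the scanner software sets for spots near background.

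Cdkn2b, the neighbour of Cdkn2a that encodes p15, was not well above background on any array by either of its probes. For A_55_P1979526 all 3 controls and knockout 3 held the surrogate value. The readings of -2.98 and -4.12 in knockout 1 and 2 were own signals, but neither was well above background, and no fold is given. For A_55_P1988183 the values ranged from -5.19 to -4.12 in knockout and from -4.61 to -3.93 in control samples, so the probes did not point the same way.

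The pocket protein genes had overlapping groups. Rb1, which encodes the retinoblastoma protein, has 1 probe (chromosome 14 of mm9, 73595408 to 73595467) printed in 10 spots per array. The SD over its spots, which covers spot noise and neither amplification nor labelling, ranged from 0.05 to 0.18 on the log2 scale (10 spots, or 9 on control 2 after 1 flagged spot was left out). The mean over spots was 1.16, 0.61 and 0.11 in knockout 1, 2 and 3, against 0.60, 1.24 and 1.03 in control 1, 2 and 3. Of these, knockout 1 and 2 lay within the range of the controls and knockout 3 below all. The log2 difference was -0.33 (SE 0.32, 95% confidence interval -1.07 to 0.41, limma, adjusted p = 0.977). It was -0.072 without knockout 3 and -0.85 with a slide row block (unadjusted p = 0.0591, adjusted p = 0.306).

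Rbl1 encodes p107, a pocket protein of cycling cells whose gene is itself an E2F target, and was measured by 2 probes on different transcript variants. The brighter one, A_55_P2024773 on transcript variant 2 (chromosome 2 of mm9, 157000761 to 157000820), read 0.52, 0.96 and 1.26 in knockout 1, 2 and 3, against 1.39, 0.49 and 1.55 in control 1, 2 and 3. Control 2 was the lowest of all and control 3 the highest. The log2 difference was -0.23 (95% confidence interval -1.02 to 0.56, limma, adjusted p = 0.984), and with a slide row block it was 0.12. The probe of variant 1, A_51_P286665, read -0.82, -1.11 and -2.24 in the knockout samples, where knockout 3 was not well above background, and -0.64, -1.97 and -1.90 in the controls. Its log2 difference was 0.11 (SE 0.48, adjusted p = 0.986 over all tested probes). Rbl2, which encodes p130, the pocket protein that prevails in resting cells, had 1 probe that was not well above background on any array, with surrogate values on 4 of 6 arrays and readings from -5.12 to -3.76 in knockout and -4.69 to -4.12 in control samples, so these arrays give no comparison for it.

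**Figure D2:**
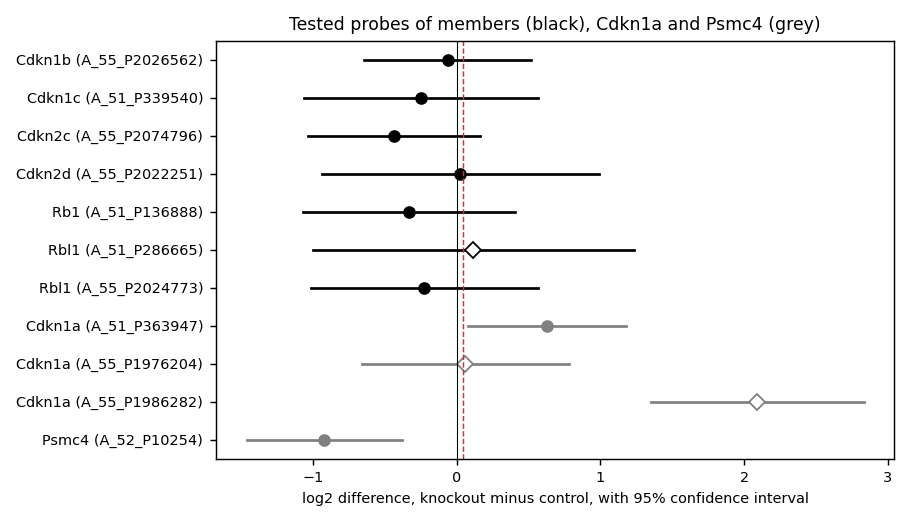
Log2 difference, knockout minus control (x axis), with its 95% confidence interval for the 7 tested probes of the set (black) and for the probes of Cdkn1a and Psmc4 (grey). Filled circles are the probes that stand for their gene, open diamonds the other tested probes, and the dashed line is the median over all features at 0.041; the intervals of all 7 member probes hold 0.

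Promoter windows of the members were searched for the E2F motif in 4 spellings, TTTCCCGC, TTTGGCGC, TTTCGCGC and TTTGCCGC, on both strands, because Rbl1 and the Arf start of Cdkn2a are known E2F targets. RefSeq windows of 300 bases (250 before to 50 after the start, GRCm38.p6) matched 7 of the 9 genes with 9 windows, and 2 of the 9 windows held the motif, beside 2.26% of all 32851 windows. The 2 matches are shown with the motif in capitals, 5′ to 3′ on the minus strand: for Rbl1 at chr2:157204535-157204612, 18 bases before the start, and for Cdkn2a at chr4:89294651-89294778, 99 bases before the upstream of its 2 starts, which is the one of p19Arf.
Rbl1: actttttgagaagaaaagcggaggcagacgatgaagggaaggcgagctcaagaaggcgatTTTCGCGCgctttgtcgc
Cdkn2a: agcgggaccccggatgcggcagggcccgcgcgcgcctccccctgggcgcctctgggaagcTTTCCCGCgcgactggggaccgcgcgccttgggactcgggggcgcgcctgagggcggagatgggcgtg
In the fixed list of E2F targets of DNA replication, 7 of 13 genes with a window held the motif. A match is a description of these letters and not a measured binding site.

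Around the members, several genes that act beside or below them had lower means in knockout cells, though 0 passed over all genes in any of the lists. Of 7 tested cyclins and kinases that the inhibitors act on, 6 were below 0 and 1 above, with a median log2 difference of -0.69; 3 had an unadjusted p under 0.05, all lower, where 4.29% of all features did so in that direction. Ccnd2, which encodes cyclin D2, read 1.39, 0.89 and 0.84 in knockout 1, 2 and 3, against 1.83, 1.75 and 1.76 in control 1, 2 and 3. The groups did not overlap for Ccnd2, with a log2 difference of -0.74 (SE 0.23, limma, adjusted p = 0.504). Cyclin D1 (Ccnd1) differed by -1.10 (SE 0.41, adjusted p = 0.618) with knockout 1 inside the controls' range. Cyclin A2 (Ccna2), a cyclin of S phase and mitosis, differed by -2.07 (SE 0.65, adjusted p = 0.526), was above background in 1 of 3 knockout samples and differed by -0.58 with normexp background correction. Cdk2 differed by -0.69 (SE 0.34, adjusted p = 0.788), while Cdk4, named after its value was seen, differed by -0.054. The mean of the 7 genes, relative to the mean of all arrays, stood at 0.063, -0.31 and -0.69 in knockout 1, 2 and 3, against 0.048, 0.42 and 0.46 in control 1, 2 and 3. It was thus lowest in knockout 3, the array with the fewest probes above background, while knockout 1 lay beside control 1. The count of 3 became 1 without knockout 3, 1 by an ordinary 2-sample test and 4 without control 1. The median became -0.32 without control 3, -0.28 with normexp background correction and -0.87 with a slide row block. With no filter on dim probes the median was -0.16 over all 10 genes of the list. The part of signal depth in this was not tested.

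Of the E2F and DP factors that the pocket proteins bind or that work beside them, 8 of 10 were tested, 6 below 0 and 2 above, with a median of -0.25. The 3 at an unadjusted p under 0.05 were all lower, beside 4.29% of all features in that direction. E2f2, an activating E2F, read -0.96, 0.35 and -0.11 in knockout 1, 2 and 3, against 0.86, 0.66 and 1.27 in control 1, 2 and 3, a log2 difference of -1.17 (SE 0.36, limma, adjusted p = 0.502). E2f8, an atypical repressor that is itself made in cycling cells, differed by -1.53 (SE 0.32, adjusted p = 0.326), or by -0.42 with normexp background correction, and was above background in 1 of 3 knockout samples. The partner gene Tfdp2 differed by -0.69 (SE 0.24, adjusted p = 0.603), and E2f3 by -0.39 (SE 0.39, adjusted p = 0.98). None of these 4 genes passed. The list's median rested on single arrays: it was -0.026 without control 2, -0.59 without control 1 and -0.47 without knockout 1, and -0.65 with a slide row block.

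The 11 tested E2F targets of DNA replication had a median of -0.38, with 8 below 0 and 3 above. Of the 11, 3 were lower at an unadjusted p under 0.05, beside 4.29% of all features in that direction. Rrm2, which encodes a subunit of ribonucleotide reductase, read 1.85, 1.71 and 1.55 in knockout 1, 2 and 3, against 2.57, 2.45 and 2.69 in control 1, 2 and 3. These groups did not overlap, and the log2 difference of -0.86 (SE 0.21) did not pass (limma, adjusted p = 0.359). The helicase genes Mcm3 and Mcm6 differed by -1.33 (SE 0.51) and -0.57 (SE 0.26) and the licensing gene Cdc6 by -0.72 (SE 0.27), and none passed (adjusted p = 0.643, 0.757 and 0.625). Mcm3 and Cdc6 were above background in 2 of 3 knockout samples. With normexp background correction the differences were -0.32, -0.32 and -0.23. Mcm3 was -0.67 without knockout 3 and -2.64 with a slide row block (adjusted p = 0.187). For the 11 genes, the count of 3 became 1 with normexp (median -0.14), 1 without control 2 and 1 by an ordinary 2-sample test. It was also 1 among the 9 above background on all 6 arrays (median -0.13). The count became 4 without knockout 3, where the median was -0.25. It was also 4 with the 75th percentile taken over probes detected on all arrays (median -0.39). With a slide row block the median was -0.54. The MuvB core and B-Myb, which join p107 or p130 in the DREAM complex or drive mitotic genes, gave 6 of 6 tested genes above 0 with a median of 0.16, and 0 at an unadjusted p under 0.05, the widest being Lin37 at 0.69 (SE 0.48) and Lin9 at 0.43 (SE 0.296). With a slide row block Lin37 was -0.084 and Lin54 -0.39, so the common sign did not hold there, and the median ranged from 0.10 without control 3 to 0.31 without knockout 1.

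Genes that set the level of the inhibitors were mixed. Of 10 tested genes tied to ubiquitin ligases of CDK inhibitors, the deubiquitinase gene Usp19 among them, 5 were above and 5 below 0, with a median of 0.082. In this list 2 differed at an unadjusted p under 0.05, both lower, beside 4.29% of all features in that direction. Cks1b, the cofactor by which SCF-Skp2 binds p27, differed by -0.56 (SE 0.22, adjusted p = 0.648). Dtl, the substrate receptor Cdt2, differed by -1.63 (SE 0.50, adjusted p = 0.498), or -0.36 with normexp background correction. It was above background in 2 of 3 knockout samples. Rbx1, the ligases' RING subunit, differed by 0.56 (SE 0.28, adjusted p = 0.796) and Usp19 by 0.52 (SE 0.30, adjusted p = 0.867). The median of this list was -0.088 without control 1 and -0.022 without knockout 1, 0.29 without control 3 and -0.054 with a slide row block. The count of 2 lower genes became 1 without control 1, control 3, knockout 2 or knockout 3. It was also 1 among the 8 genes above background on all 6 arrays. Without knockout 3, 1 gene was higher, Rbx1 at 0.82 (SE 0.18, limma, unadjusted p = 0.00543, adjusted p = 0.378). Rbx1 was 0.043 with the slide row block. Of 9 tested polycomb genes, whose complexes keep the Cdkn2a locus silent, 3 were above and 6 below 0 with a median of -0.063. Ring1, a ligase subunit for histone H2A, stayed near background on the 3 knockout arrays and was at least 1.96-fold lower there than in control cells (limma, adjusted p = 0.213), a bound that sets the control mean against the lowest signal called above background or the probe's own. With normexp background correction Ring1 differed by -0.22 (adjusted p = 0.999). Phc2 differed by -0.72 (SE 0.21, adjusted p = 0.491), or -0.22 with normexp, and was above background in 2 of 3 knockout samples. Cbx7 differed by 0.23 (SE 0.20). Of the 9 polycomb genes, 2 had an unadjusted p under 0.05, both lower, beside 4.29% of all features in that direction. This count became 0 with normexp, 0 among the 7 genes above background on all 6 arrays and 1 without control 3. The median was 0.068 without knockout 3 and -0.37 with a slide row block. Of 10 tested activators of CDK inhibitor genes, 5 lay on each side of 0 with a median of -0.038, and 1 was higher at an unadjusted p under 0.05, where the share over all features was 2.82%. It was Dmtf1, a factor that turns on the Arf promoter, at 1.18 (SE 0.42, adjusted p = 0.604), above background in 2 of 3 controls and 0.39 with normexp. The count of 1 became 0 without control 1, without knockout 1 and with a slide row block, and the median was 0.028 without knockout 3. Foxo1, which turns on Cdkn1b, differed by -0.42 (SE 0.27, adjusted p = 0.905).

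**Figure D3:**
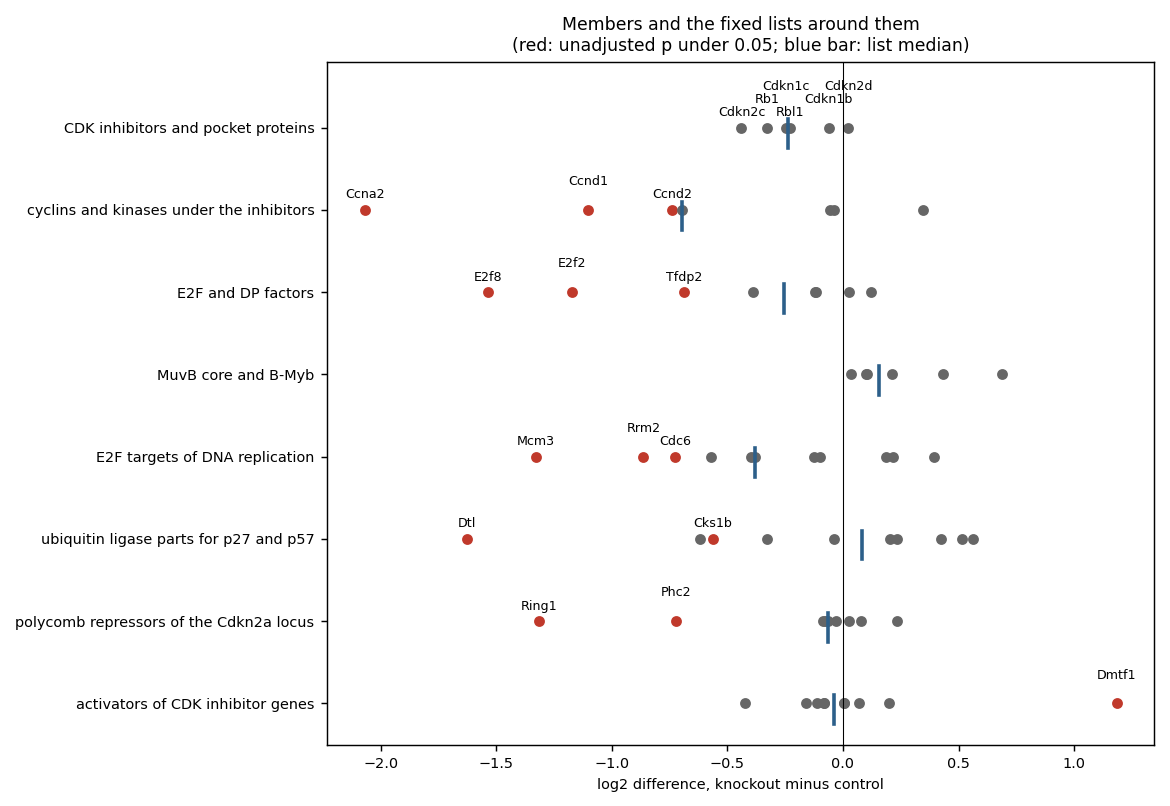
Log2 difference, knockout minus control (x axis), of the 6 tested members and of the tested genes of 7 lists around them, 1 point per gene, red where the unadjusted p is under 0.05, with the list median as a blue bar. Members lie between -0.44 and 0.023, while single genes of the lists reach -2.07 (Ccna2) and 1.18 (Dmtf1); 0 genes shown pass after adjustment over all features.

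The 6 tested members were followed through 21 alternative ways of processing each. In none did a member pass at an adjusted p under 0.05, and the lowest adjusted p of any member was 0.295, for Cdkn2c with a slide row block. Cdkn2c and Rb1 stayed below 0 in all 21, in the range -0.77 to -0.28 and -0.85 to -0.072. The other 4 changed sign in at least 1. Several settings change only the test or the filter and leave the estimate as it was, and both slide row fits share an estimate. The 21 are therefore not separate checks of a sign.

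**Figure D4:**
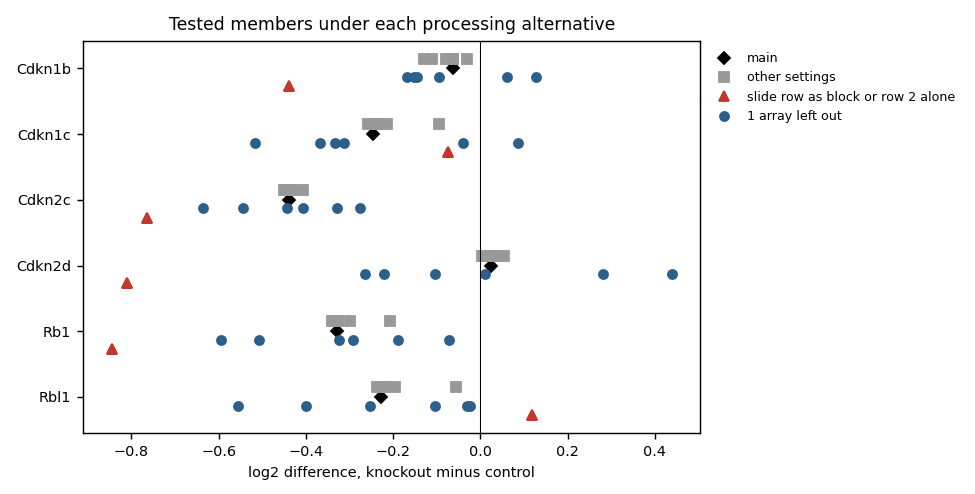
Log2 difference, knockout minus control (x axis), of each tested member in the main fit (black), with a slide row block or in row 2 alone (red, equal values), with 1 array left out (blue) and under the other settings (grey). Leaving out an array moves Cdkn2d between -0.26 and 0.44, and the slide row fits, which rest on knockout 3, lie lowest for Cdkn1b, Cdkn2c, Cdkn2d and Rb1.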

How the data were processed

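Each file is the scan of 1 array, and its linear intensity values had been background-subtracted and spatially detrended by the authors with Feature Extraction from Agilent (per the file headers 10.7.1.1, in the submitters' processing notes 9.5.1.1). Other columns used, per the file headers, are flags of 0 or 1. The deposited value table, linear intensity with equal quantiles in all columns, served as an alternative.

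The members and lists were chosen with earlier results of these data known. Processed signals were taken to log2 and each array's 75th percentile was subtracted. Flagged spots were left out, spots of the same probe were averaged, and probes entered the fit if all 3 arrays of a group were well above background. The brightest such probe stood for a gene name, and 1346 probes without a name were features of their own. Names were updated through 27235 matched transcript accessions (RefSeq, GRCm38.p6). Of 55681 probes, 26109 were tested and gave 19298 features. The 3 knockout arrays were compared with the 3 control arrays by lmFit and eBayes (limma 3.58.1; R 4.3.3; data.table package 1.17.8), 2-sided, with Benjamini-Hochberg adjustment. Nothing is said of separate litters or sorts, so p-values measure the spread between these samples. All members, Cdkn1a and Psmc4 are named, with up to 4 genes of each pathway list by smallest p, and the 3 features most correlated with the tested member of smallest p. Cell type markers, and Cdk4, were named after their values were seen. No spot was saturated (0 on each array). Precision is set by the number of arrays, and the median SE was 0.27.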

Additional observations from a re-analysis of the deposited data

How the results depend on the processing

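Member calls stayed at 0 in each direction under all alternatives run. Over all features, where 0 were called in either direction, 1 was higher with normexp background correction, 1 was lower with quantile normalization and 1 in the deposited table, 2 were lower with median scaling, and 2 were higher and 1 lower with an intensity trend and robust moderation; none was a member, and the cause was not tested. At an unadjusted p under 0.05 there were 1372 features, against 3220 with a slide row block and 2806 in slide row 2 alone, where knockout 3 is assumed to vary like the controls. The count of members at an unadjusted p under 0.05 was 0 and became 1 without a filter on dim probes (Cdkn2b), in both slide row fits and without knockout 1 (Cdkn2c in these 3).

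Cdkn2d changed sign with a slide row block, to -0.81, and in slide row 2 alone, to -0.81, and Rbl1 to 0.12 in both. Leaving out 1 array in turn gave -0.17 to 0.13 for Cdkn1b, -0.52 to 0.087 for Cdkn1c, -0.63 to -0.28 for Cdkn2c, -0.26 to 0.44 for Cdkn2d, -0.59 to -0.072 for Rb1 and -0.55 to -0.024 for Rbl1. The labels state no pairing of same-numbered samples. The correlations of their deviations were 0.072, -0.016 and 0.091, which do not settle whether such samples shared a litter or a sort. With the replicate number as a block 0 features were higher and 0 lower (1428 at an unadjusted p under 0.05). No scaling moved the median of all features by over 0.1. Signal near background limits what can be said of Cdkn2a, Cdkn2b and Rbl2.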
